A study of Sus scrofa with 6 samples.

Results

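Drug-metabolizing enzymes were described in RNA from the lungs of 6 female piglets, hybrids of a Tibetan sire line and a Meishan dam line. In the fetal group (n = 3) lungs were collected on the day preceding birth, with pregnancy set at 113 days, and in the neonatal group (n = 3) at an age of 2 days. All 6 piglets had different dams. Each piglet gave 1 Ribo-Zero library of lung tissue, with no experimental treatment in either group, and the groups differ in age and in having been born. The paper also names caesarean and parturition, so the groups may differ in delivery as well. It states that the pigs were killed by exsanguination after a ketamine injection. The authors deposited FPKM, fragment counts scaled by transcript length and by the mapped reads of the library, and the files hold no read counts. Fetal piglets are called Fetal1 to Fetal3 and neonatal ones Neonatal1 to Neonatal3, and 3 values of a group follow that order.

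Members were taken by a rule on gene symbols. They are the cytochrome P450s other than CYP51A1, flavin-containing monooxygenases (FMO), sulfotransferases (SULT), NAT acetyltransferases, alcohol dehydrogenases (ADH), aldehyde dehydrogenases (ALDH) other than ALDH1A1, ALDH1A2 and ALDH1A3, the epoxide hydrolases EPHX1 and EPHX2, the oxidase AOX1 and the receptor AHR. Of the 14579 mRNAs in the table, 9478 had an identifier with a symbol, and 41 of these met the rule. One of the 41, FMOD, is fibromodulin, a matrix proteoglycan that shares only its first letters with the FMO enzymes. It was set apart, which left 40 members. Of the 81 symbols of the reference table that meet the rule, FMOD aside, 41 matched no row and were not analysed here, among them AHRR, ARNT2, NR1I2, NR1I3, POR, CYP1B1, CYP1A2, CYP2F1, CYP2S1 and CYP3A29. No row was matched to a UGT1, UGT2, CES1 or CES2 gene, and these were not analysed here either. No file at hand held sequences of these genes, and none is printed.

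Most P450s are heme enzymes of the endoplasmic reticulum that insert 1 oxygen atom into a substrate with electrons from POR. Families 1 to 3 act mainly on drugs, plant toxins and smoke constituents, while other families make or break down steroids, bile acids, retinoic acid and vitamin D. FMO enzymes oxygenate nitrogen and sulfur atoms of small molecules. Epoxide hydrolases, sulfotransferases and dehydrogenases act on the products, which can then leave the cell. AHR is a transcription factor that binds planar aromatic ligands, pairs with ARNT and induces CYP1A1. In lung, club cells and alveolar type II cells are known for their P450 content.

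The lung identity of the samples was plain from defining markers. The surfactant gene SFTPC was at 3171 to 3902 FPKM before birth and 4233 to 8790 FPKM after it, and the alveolar type I marker AGER was between 396 and 767 FPKM over both groups. The 6 measured alveolar type II markers of 8 listed summed to 4480 to 5070 FPKM before birth and 5760 to 10700 FPKM after it. These sums did not overlap, and SFTPC made up most of each. The groups overlapped for SFTPD, ABCA3, NAPSA and SLC34A2, with a log2(FC) of -0.24 for NAPSA and 0.07 for SLC34A2. Of the 6, 0 passed in limma and 0 had an unadjusted p under 0.05, against 6.87% and 24.2% of all mRNAs. Of 10 hepatocyte markers 3 were measured. ALB stood between 0.0540 and 0.570 FPKM, while APOA1 was between 8.70 and 32.4 FPKM and TF between 13.1 and 27.1 FPKM. The 4 measured mesenchymal markers of 6 listed summed to 867 to 1100 FPKM before birth and 1150 to 1470 FPKM after it. These sums did not overlap either, and COL3A1 made up most of each. The groups overlapped for PDGFRB and DCN, with a log2(FC) of -0.17 for DCN. Of the 4, 0 passed in limma and 1 had an unadjusted p under 0.05, or 25.0%, against 24.2% of all mRNAs. Of the 6 listed club cell markers 5 were measured, and their summed level was 2430 to 7160 FPKM in the fetal group and 1220 to 3390 FPKM in the neonatal group. SCGB1A1, the main club cell secretory protein, was at 138.5, 119 and 99.8 FPKM before birth. It was at 62.2 and 62.0 FPKM in Neonatal1 and Neonatal3 but at 0.213 FPKM in Neonatal2 (limma, adjusted p = 0.265). SCGB3A2 was at 2136, 6558 and 6790 FPKM before birth and at 1406, 899 and 2844 FPKM after it (limma, adjusted p = 0.213). SCGB3A1 overlapped between the groups, with means of 124 and 151 FPKM (limma, adjusted p = 0.938). BPIFA1 also overlapped, with means of 158 and 161 FPKM (limma, adjusted p = 0.599). A further club cell product, BPIFB1, rose from 0.784 to 3.18 FPKM before birth to 7.74 to 12.4 FPKM after it (log2(FC) 2.17, limma, adjusted p = 0.0149). That call was lost without Fetal1, Fetal3, Neonatal2 or Neonatal3, at adjusted p values of 0.0650 to 0.0783. The 4 measured macrophage markers of 5 listed summed to 111 to 334 FPKM before birth and 261 to 658 FPKM after it, with overlap and with MARCO as the main part. All 4 had a positive log2(FC), from 0.84 to 1.25, with an unadjusted p under 0.05, which 24.2% of all mRNAs had. The groups did not overlap for CD68 and MRC1, or 50.0% of the 4, against 30.5% of all mRNAs. In limma 0 passed (adjusted p = 0.0506 for CD68). The part of these cell types in the results on the enzymes was not tested. In such bulk samples, fewer cells of a type and less RNA per cell cannot be told apart.

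Levels of the members spanned more than 3 orders of magnitude, with mean FPKM over the 6 samples from 0.131 for CYP21A2 to 397 for CYP4B1. CYP4B1 is a P450 of lung that activates plant furans. It was followed by FMO1 at 180 FPKM, by the phenol sulfotransferase SULT1A3 at 96.3 FPKM, by the microsomal epoxide hydrolase EPHX1 at 83.1 FPKM and by FMO2, the typical FMO of mammalian lung, at 43.9 FPKM. CYP4B1 alone made up between 90.5% and 93.9% of the summed FPKM of the 13 P450s among the members in every sample. The other 12 P450s together were at 30.1 to 32.9 FPKM in the fetal group and 28.3 to 32.0 FPKM in the neonatal group. The ranking, the share and these sums leave out CYP4V2, a P450 whose row only the study's own gene table names. Its levels were 78.7, 82.9 and 85.5 FPKM before birth and 64.1, 55.2 and 68.8 FPKM after it, without overlap. With a mean of 72.5 FPKM it lay above FMO2 and above the summed level of the other 12 P450s in any sample. Counting it would lower the share of CYP4B1 in every sample. It would also make the sums without CYP4B1 higher before birth than after it, with no overlap, so their near-equal level depends on leaving out this row. Of the 40 members, 33 exceeded 1 FPKM in at least 3 samples. Summed over all 40 members, the fetal samples reached 1424, 1205 and 1240 FPKM and the neonatal ones 764, 1050 and 1038 FPKM. CYP4B1 and FMO1 carry much of these sums.

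**Figure D1:**
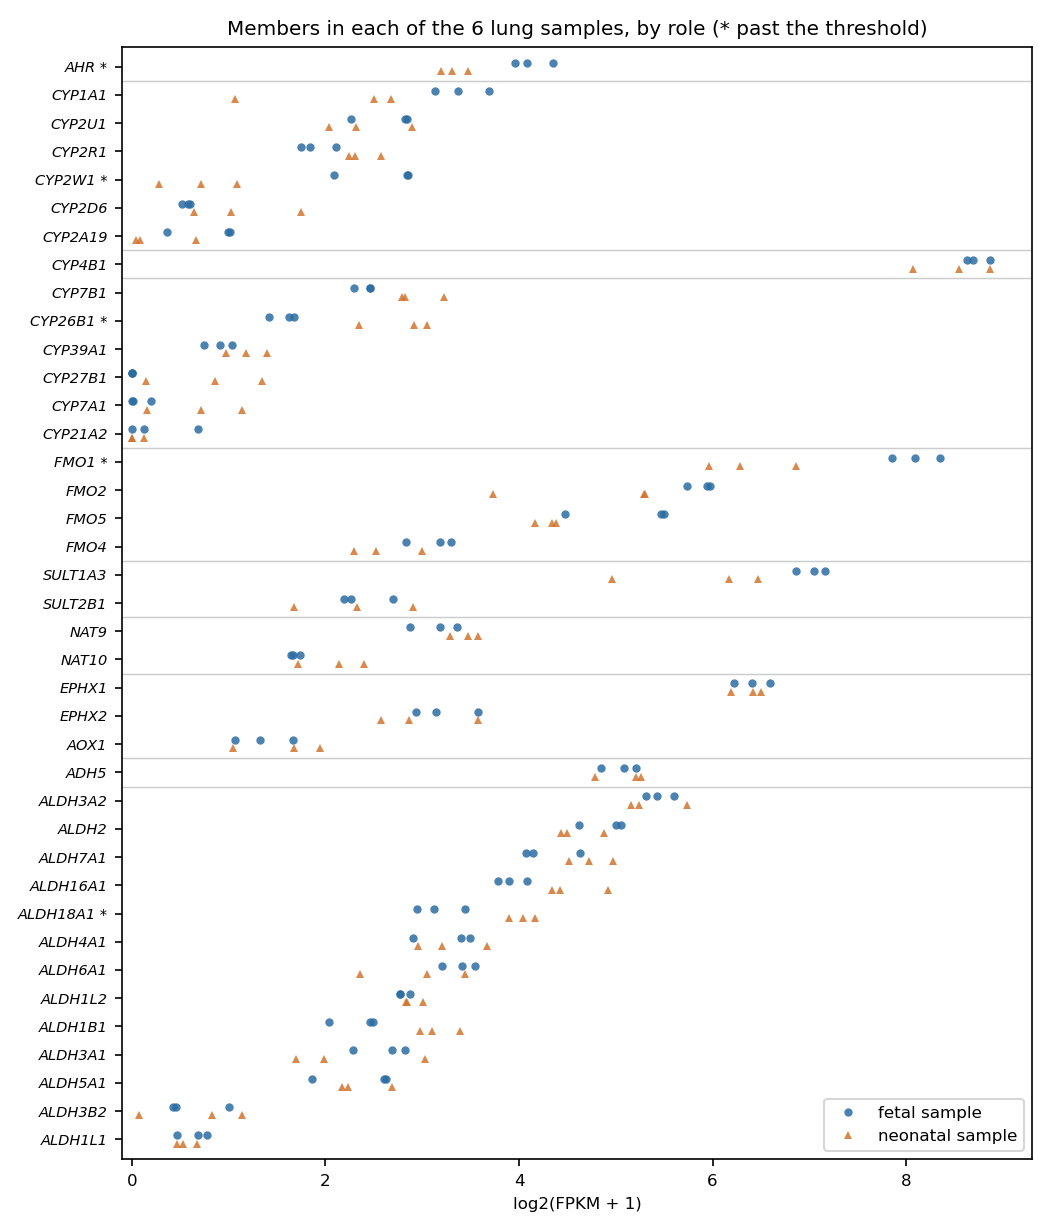
Level of 39 of the 40 members in each sample, as log2(FPKM + 1) on the horizontal axis, with fetal samples as circles and neonatal samples as triangles, and genes grouped by role and ordered by mean level. CYP4B1 lies farthest to the right, and the fetal and neonatal points of AHR, CYP2W1, CYP26B1, FMO1 and ALDH18A1, which carry an asterisk, do not overlap.

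Between the groups, FMO1 (ENSSSCG00000015268), CYP2W1 (ENSSSCG00000007549) and AHR (ENSSSCG00000030484) fell, and CYP26B1 (ENSSSCG00000008311) and ALDH18A1 (ENSSSCG00000010495) rose. Differences were fitted in limma on log2(FPKM + 1) over all mRNAs, and log2(FC) below is the neonatal minus the fetal mean on that scale, which understates the change of genes with low FPKM. With an adjusted p of 0.05 or less as the threshold, 5 of 40 members passed, or 12.5%, against 6.87% of all mRNAs. For 2 of the 5 the level was higher after birth, where 5.41% of all mRNAs passed, and for 3 it was lower, where 1.45% passed. Groups did not overlap for 15 of 40 members, or 37.5%, against 30.5% of all mRNAs. Of the 15, 8 were higher after birth (20.9% of all mRNAs) and 7 were lower (9.64% of all mRNAs). An unadjusted p under 0.05 was reached by 14 of 40 members, or 35.0%, against 24.2% of all mRNAs. The median log2(FC) of the members was -0.02, against 0.13 for all mRNAs. That overall median moved to -0.0090 after median-of-ratios scaling, and the median of the members then moved to -0.15.

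AHR, the aryl hydrocarbon receptor, stood at 19.4, 15.9 and 14.6 FPKM before birth against 8.88, 10.1 and 8.17 FPKM after it. Every neonatal value lay below every fetal value, and the means were 16.6 ± 2.48 and 9.06 ± 0.986 FPKM (SD, n = 3 each). Its log2(FC) was -0.80 (standard error 0.18, limma, adjusted p = 0.0452). This call rested on all 6 samples, since leaving out any 1 of them gave adjusted p values between 0.0750 and 0.145. It was also lost in limma without a variance trend, at 0.0556. The partner ARNT had a log2(FC) of -0.18 (limma, adjusted p = 0.540), with means of 18.2 and 15.9 FPKM.

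CYP1A1, the P450 induced through AHR, stood at 11.9, 9.36 and 7.77 FPKM before birth against 1.09, 5.40 and 4.64 FPKM after it. All neonatal values were below all fetal values, with Neonatal1 the lowest, and the fetal mean was 2.60 times the neonatal mean. The log2(FC) of -1.32 (95% interval -2.31 to -0.33) did not pass over all mRNAs (limma, adjusted p = 0.114), nor in any other fit, whose adjusted p values lay between 0.0722 and 0.289. Without Neonatal1 the log2(FC) was -0.81. Among 7 listed genes of the AHR complex and its targets 6 were measured. For 0 of the 6 was the threshold passed in limma, and 0 had an unadjusted p under 0.05, against 6.87% and 24.2% of all mRNAs. The groups did not overlap for 1 of the 6, or 16.7%, against 30.5% of all mRNAs. This was NFE2L2, at 28.9, 28.0 and 32.8 FPKM before birth and 19.7, 24.2 and 26.1 FPKM after it (log2(FC) -0.35, limma, adjusted p = 0.28). TIPARP, an AHR-induced ADP-ribosyltransferase that dampens AHR, was at 9.98 and 12.3 FPKM on average (log2(FC) 0.28, limma, adjusted p = 0.384). NQO1, a quinone reductase induced through AHR and NFE2L2, was at 8.10 and 9.59 FPKM (log2(FC) 0.23, limma, adjusted p = 0.517).

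**Figure D2:**
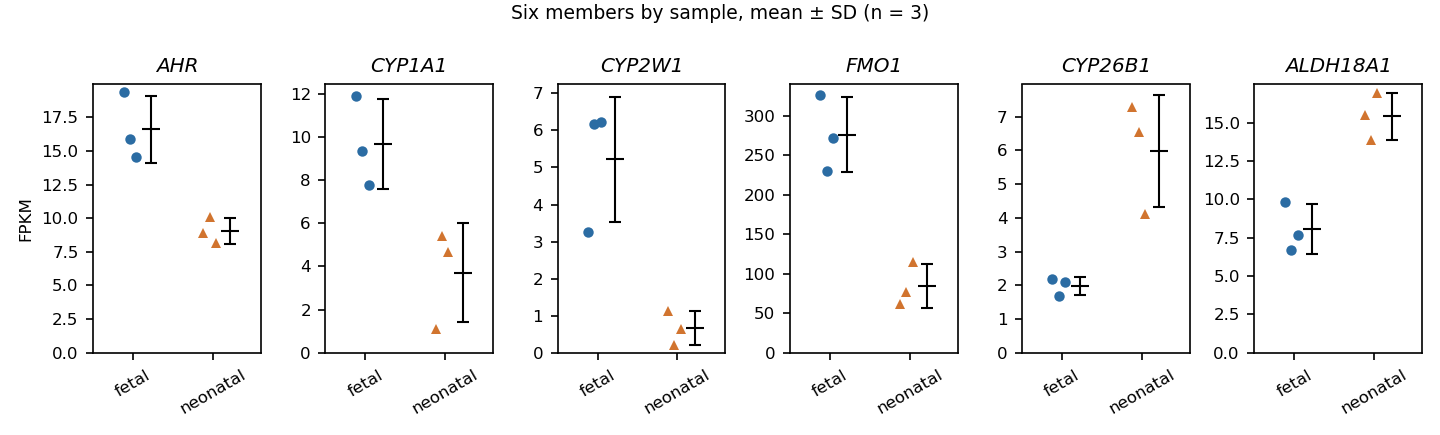
FPKM of AHR, CYP1A1, CYP2W1, FMO1, CYP26B1 and ALDH18A1 in the fetal (circles) and neonatal (triangles) samples, with the mean and SD of 3 samples beside the points and each axis starting at 0. The groups do not overlap for any of the 6 genes, and CYP1A1 is the one that did not pass the threshold.

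Among the other P450s of families 1 to 3, CYP2W1 fell. It was the 1 call among the 6 members of these families, or 16.7%, against 6.87% of all mRNAs. For 4 of the 6, or 66.7%, the groups did not overlap, against 30.5% of all mRNAs. CYP2W1 is an enzyme with no settled substrate, known from fetal gut and from tumors. Its fetal levels of 3.27, 6.16 and 6.22 FPKM stood against neonatal levels of 1.12, 0.211 and 0.642 FPKM. The highest neonatal value was below the lowest fetal value, and the fetal mean was 7.92 times the neonatal mean. The log2(FC) was -1.90 (standard error 0.31, limma, adjusted p = 0.0150). It stayed past the threshold under every alternative with 6 samples, and was lost, with adjusted p values between 0.0628 and 0.0892, without Fetal2, Fetal3, Neonatal2 or Neonatal3.

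The other 4 members of families 1 to 3 did not pass. CYP2R1, which carries out the first activating hydroxylation of vitamin D, was at 2.36 to 3.31 FPKM before birth and 3.74 to 4.94 FPKM after it, without overlap (log2(FC) 0.47, limma, adjusted p = 0.200). CYP2U1, a fatty acid hydroxylase, overlapped between the groups at 3.79 to 6.16 and 3.10 to 6.43 FPKM (log2(FC) -0.22, limma, adjusted p = 0.661). CYP2D6 and CYP2A19 were low, at means of 0.898 and 0.494 FPKM over the 6 samples. CYP2D6 was at 0.431 to 0.519 FPKM before birth and at 0.561, 1.03 and 2.35 FPKM after it (limma, adjusted p = 0.290). CYP2A19 was at 0.285, 0.991 and 1.01 FPKM before birth and at 0.583, 0.0297 and 0.0610 FPKM after it (limma, adjusted p = 0.301). Both belong to multigene families whose similar copies can share reads, so their levels are uncertain.

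CYP4B1 did not pass the threshold. Its fetal values were 466, 412 and 395 FPKM and its neonatal values 269, 466 and 374 FPKM, so that Neonatal2 was level with the highest fetal sample and Neonatal1 stood lowest. The log2(FC) was -0.23 with a 95% interval from -0.92 to 0.46 (limma, adjusted p = 0.664). It was -0.0197 without Neonatal1 and -0.417 without Neonatal2. Under quantile normalization it was -0.91 (limma, adjusted p = 0.0646).

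The 6 P450s of vitamins, sterols and steroids held the other P450 call, or 16.7% of the 6, against 6.87% of all mRNAs. For 3 of the 6, or 50.0%, the groups did not overlap, against 30.5% of all mRNAs. CYP26B1, which clears retinoic acid, rose from 2.19, 1.68 and 2.09 FPKM to 7.30, 6.54 and 4.10 FPKM. The groups did not overlap, the neonatal mean was 3.01 times the fetal mean, and the log2(FC) was 1.20 (standard error 0.24, limma, adjusted p = 0.0290). The call held without Neonatal3, at an adjusted p of 0.0397, and was lost without any other sample, at 0.0650 to 0.134. It was also lost under median-of-ratios scaling, at 0.0533.

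CYP7B1, an oxysterol hydroxylase, was at 3.89 to 4.49 FPKM before birth and 5.92 to 8.34 FPKM after it, without overlap (log2(FC) 0.55, limma, adjusted p = 0.145). CYP27B1, which makes the hormonal form of vitamin D, was listed at 0 in all fetal samples and at 1.54, 0.104 and 0.812 FPKM after birth (limma, adjusted p = 0.187). CYP7A1, the rate-limiting enzyme of bile acid synthesis, was at 0.143, 0.0114 and 0 FPKM before birth and at 1.19, 0.115 and 0.642 FPKM after it (limma, adjusted p = 0.244). In both genes Neonatal2 was close to the fetal values. CYP39A1, another oxysterol hydroxylase, was between 0.675 and 1.63 FPKM, and the adrenal enzyme CYP21A2 was listed at 0 in 3 of the 6 samples and reached 0.608 FPKM. Neither passed (limma, adjusted p = 0.445 and 0.601).

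Of the 40 members, FMO1 had the largest difference in mean FPKM. FMO1, the main FMO of human fetal liver, fell from 326, 231 and 272 FPKM to 61.5, 76.7 and 115 FPKM. Each neonatal value was below each fetal value. The means were 276 ± 47.9 and 84.4 ± 27.6 FPKM (SD, n = 3 each), 3.27 times higher before birth, with a log2(FC) of -1.73 (standard error 0.29, limma, adjusted p = 0.0169). The call was lost without any 1 fetal sample or without Neonatal2, at adjusted p values of 0.0650 to 0.0839.

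FMO2 was at 52.3, 60.4 and 61.9 FPKM before birth and at 38.1, 12.3 and 38.4 FPKM after it, with no overlap and with Neonatal2 far below the rest. Its log2(FC) of -1.11 did not pass (95% interval -2.08 to -0.14, limma, adjusted p = 0.160). Without Neonatal2 it was -0.59. The same sample was the one in which SCGB1A1 was at 0.213 FPKM. The club cell markers SCGB3A1 and SCGB3A2 were also lowest there, at 53.9 and 899 FPKM. BPIFA1 and BPIFB1 instead had their highest neonatal values there, at 249 and 12.4 FPKM. A link of FMO2 to these markers was not tested. FMO5, which inserts oxygen beside ketones, was at 43.3, 44.2 and 21.2 FPKM before birth and at 19.9, 17.0 and 19.3 FPKM after it. Fetal3 was close to the neonatal samples, and the log2(FC) was -0.85 (limma, adjusted p = 0.137). Without Fetal3 the log2(FC) of FMO5 was -1.19 and passed (limma, adjusted p = 0.0367). FMO4 overlapped between the groups, at 6.11 to 8.82 and 3.92 to 6.99 FPKM (limma, adjusted p = 0.256). The sign of log2(FC) of each of FMO1, FMO2, FMO4 and FMO5 was the same under all alternatives and with any sample left out.

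**Figure D3:**
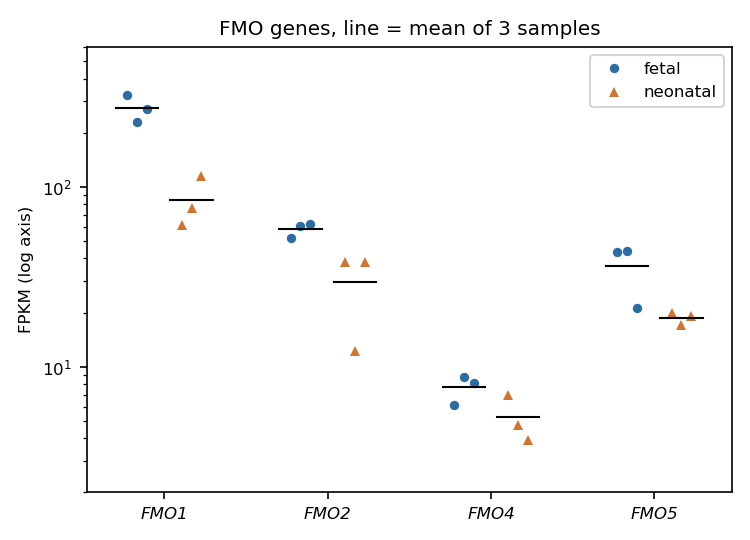
FPKM on a log axis of 4 FMO genes in fetal (circles) and neonatal (triangles) samples, with a line at each mean of 3 samples. The groups do not overlap for FMO1, FMO2 and FMO5 and overlap for FMO4, and they do not overlap for 30.5% of all mRNAs.

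Among the conjugating enzymes, SULT1A3, which sulfates phenols, was at 142, 116 and 131 FPKM before birth and at 30.2, 87.7 and 71.1 FPKM after it. The groups did not overlap, Neonatal1 was the lowest, and the fetal mean was 2.06 times the neonatal mean. The log2(FC) of -1.16 did not pass (95% interval -2.05 to -0.26, limma, adjusted p = 0.123), but it did under quantile normalization, at -1.57 and an adjusted p of 0.0265. Without Neonatal1 it was -0.70. Copies of the SULT1A genes are alike and can share reads, so this level is uncertain. SULT2B1, which sulfates cholesterol, had means of 4.29 and 4.23 FPKM (log2(FC) -0.08, 95% interval -0.86 to 0.69, limma, adjusted p = 0.896). The members named NAT were NAT9 and NAT10, which are not the drug-acetylating NAT1 or NAT2, and NAT10 acetylates RNA. Their log2(FC) values were 0.30 and 0.41 (limma, adjusted p = 0.386 and 0.314).

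The hydrolases and the oxidase did not pass, and none of the 3 had an unadjusted p under 0.05, which 24.2% of all mRNAs had. EPHX1 overlapped between the groups, at 95.2, 83.8 and 73.8 FPKM before birth and 72.2, 89.3 and 84.3 FPKM after it, and its interval of log2(FC) reached from -0.50 to 0.42 (limma, adjusted p = 0.922). EPHX2, which hydrolyses epoxides of fatty acids, had means of 8.47 and 7.40 FPKM (log2(FC) -0.21, limma, adjusted p = 0.700). AOX1, which oxidizes aldehydes and nitrogen heterocycles, had means of 1.59 and 2.03 FPKM (log2(FC) 0.20, limma, adjusted p = 0.709). ADH5, the alcohol dehydrogenase that clears formaldehyde bound to glutathione, was at 27.7 to 36.1 FPKM before birth and 26.7 to 37.2 FPKM after it (log2(FC) 0.04, 95% interval -0.44 to 0.51, limma, adjusted p = 0.929).

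Of the 13 aldehyde dehydrogenases 1 passed, or 7.69%, near the 6.87% of all mRNAs. ALDH18A1, which makes the precursor of proline and ornithine and is no drug-metabolizing enzyme, rose from 9.85, 6.69 and 7.70 FPKM to 15.5, 13.9 and 16.9 FPKM. All neonatal values lay above all fetal values, at 1.91 times the fetal mean (log2(FC) 0.87, standard error 0.19, limma, adjusted p = 0.0426). The call was lost without any 1 of the 6 samples, at adjusted p values of 0.0684 to 0.157, under median-of-ratios scaling, at 0.0543, under quantile normalization, at 0.0589, and without a variance trend, at 0.0519. ALDH1B1, a mitochondrial enzyme of acetaldehyde and retinaldehyde, was at 4.63, 3.09 and 4.49 FPKM before birth and at 7.60, 6.89 and 9.45 FPKM after it, without overlap. Its log2(FC) of 0.83 fell just short of the threshold (limma, adjusted p = 0.0632). With genes limited to those above 1 FPKM in at least 3 samples it passed, at 0.0495. ALDH16A1 did not overlap either, at 12.7 to 15.9 and 19.3 to 29.3 FPKM (log2(FC) 0.64, limma, adjusted p = 0.119).

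The other 10 aldehyde dehydrogenases overlapped between the groups. The 3 without overlap were 23.1% of the 13, against 30.5% of all mRNAs. The most abundant was ALDH3A2, which oxidizes fatty aldehydes, at means of 42.7 and 41.2 FPKM (log2(FC) -0.07, 95% interval -0.57 to 0.43, limma, adjusted p = 0.865). ALDH2, the mitochondrial enzyme that clears acetaldehyde, had means of 29.0 and 23.6 FPKM (log2(FC) -0.29, limma, adjusted p = 0.434). ALDH7A1, of lysine breakdown, had means of 18.8 and 25.9 FPKM (log2(FC) 0.45, limma, adjusted p = 0.256). The remaining 7 (ALDH1L1, ALDH1L2, ALDH3A1, ALDH3B2, ALDH4A1, ALDH5A1 and ALDH6A1) had log2(FC) values from -0.44 for ALDH6A1 to 0.09 for ALDH1L2.

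**Figure D4:**
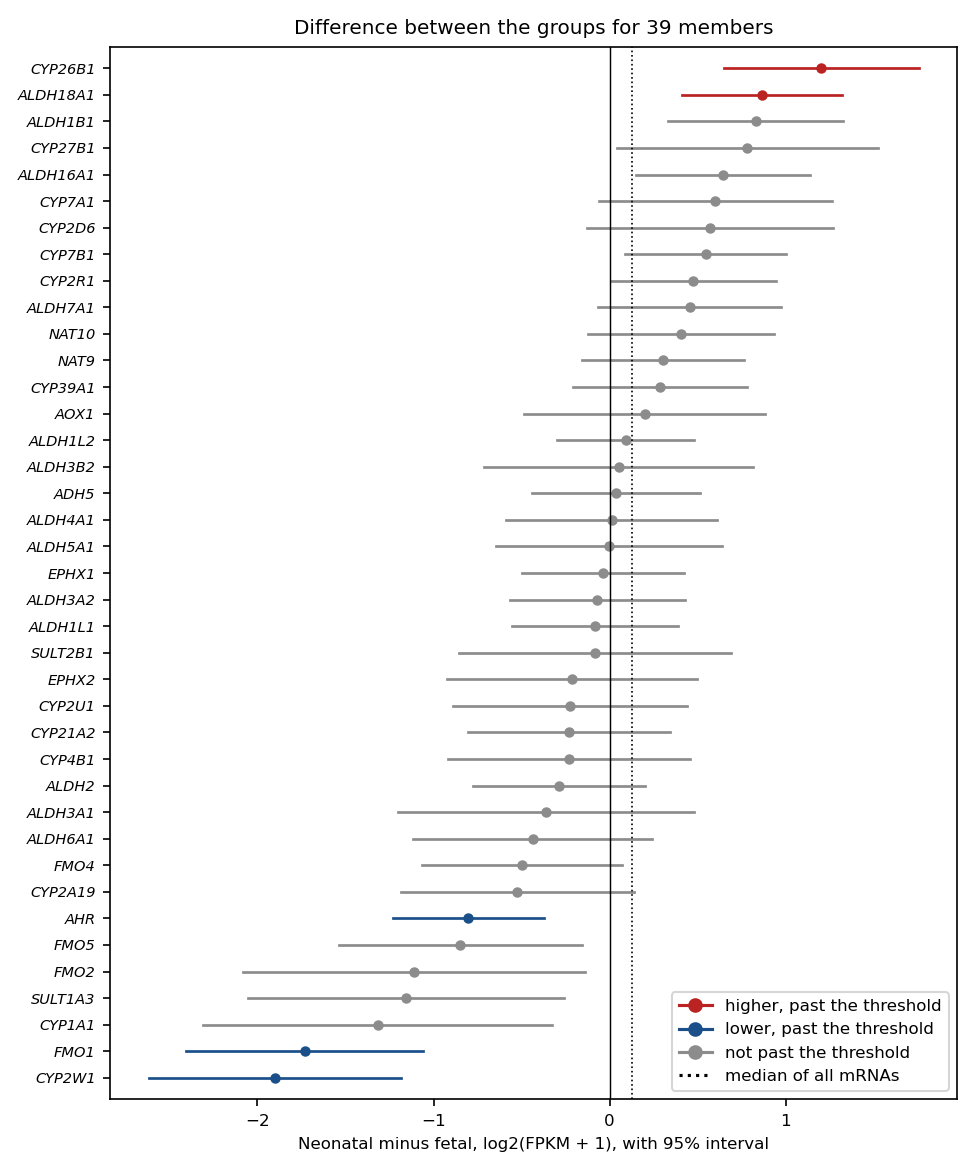
Neonatal minus fetal difference of 39 of the 40 members on the log2(FPKM + 1) scale, with 95% intervals from limma, ordered by size. Red marks CYP26B1 and ALDH18A1, blue marks AHR, FMO1 and CYP2W1, and the dotted line stands at 0.13, the median of all mRNAs.

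A further list of genes of the same pathways that the rule leaves out gave 36 measured genes of 62. Of these, 4 passed, or 11.1%, against 6.87% of all mRNAs. All 4 were higher after birth, where 5.41% of all mRNAs passed. CBR3, a carbonyl reductase, went from 2.85, 1.02 and 2.82 FPKM to 6.58, 9.83 and 12.7 FPKM (log2(FC) 1.75, limma, adjusted p = 0.0258). AKR1A1, an aldehyde reductase, went from 22.8, 19.1 and 24.6 FPKM to 36.9, 61.2 and 83.1 FPKM (log2(FC) 1.34, limma, adjusted p = 0.0419). UGDH, which makes the sugar donor of glucuronidation, went from 7.66, 6.77 and 7.55 FPKM to 14.6, 13.2 and 13.4 FPKM (log2(FC) 0.82, limma, adjusted p = 0.0282). TPMT, which methylates thiopurines, went from 0.551, 0.370 and 0.188 FPKM to 2.08, 1.99 and 2.96 FPKM (log2(FC) 1.28, limma, adjusted p = 0.0184). The groups did not overlap for any of these 4, nor for 8 of the 36 in all, or 22.2%, against 30.5% of all mRNAs. The 4 called genes belong to the 10 measured genes for other conjugation and reduction. A further one of the 10, PAPSS2, which makes the sulfate donor used by the sulfotransferases, had means of 47.2 and 30.5 FPKM and did not pass (limma, adjusted p = 0.241). Of the calls, those on CBR3, AKR1A1 and TPMT held without Neonatal1 and were lost without any other sample. That on UGDH was lost without any 1 sample, at adjusted p values of 0.0514 to 0.118, under median-of-ratios scaling, at 0.0534, and under quantile normalization, at 0.0562.

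No gene of the other pathway lists passed in limma, where 6.87% of all mRNAs did. Among them, 1 of 5 glutathione transferases and 1 of 4 efflux pumps had an unadjusted p under 0.05, and 0 of 4 genes of electron transfer to P450s and 0 of 5 partners of the xenobiotic receptors did, where 24.2% of all mRNAs did. GSTA4, a glutathione transferase for lipid aldehydes, was at means of 3.65 and 6.56 FPKM (limma, adjusted p = 0.129). ABCC3, an exporter of conjugates, was at 2.95 and 5.35 FPKM (limma, adjusted p = 0.0729), without overlap. CYB5A, an electron donor to P450s, was at 76.9 and 54.5 FPKM (limma, adjusted p = 0.274).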

How the data were processed

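The authors mapped quality-filtered reads of strand-specific Ribo-Zero libraries to Sscrofa10.2 with TopHat2 2.1.0 and computed FPKM per sample with Cufflinks 2.2.1 (versions from the submitters' processing notes), and all 14579 deposited mRNAs exceed 0.5 FPKM in at least 1 sample. The deposited lncRNA table was not used here, and 0 value columns of the mRNA table were left unmatched. Symbols came from an Ensembl table by gene identifier. Differences were fitted across all mRNAs in limma 3.58.1 (R 4.3.3) on log2(FPKM + 1) with a mean-variance trend, with Benjamini-Hochberg adjustment over the table. The fit was tested on simulated data. Tables and figures used Python 3.11.15, pandas 2.3.3 and matplotlib 3.10.9. Without counts, depth per gene is unknown and replicate spread is the only error. Piglets of a group came from different sows.

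The members, lists and rules were chosen with earlier results of these data known. The rule for named genes took every member past the threshold, the regulators, the 5 largest rises and falls without overlap, the 5 highest levels and the most abundant member of each role. For those, for the other members, and for listed genes past the threshold, the fit was repeated with pseudocounts of 0.5 and 0.1, on genes over 1 FPKM in 3 or more samples, after scaling by median-of-ratios size factors or quantiles, with no trend, with replicate number as a blocking term, and leaving out every sample in turn. The authors' Cuffdiff values were not used. One of the 40 members is in the counts but is not reported here.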

Additional observations from a re-analysis of the deposited data

How the results depend on the processing

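With all 6 samples, 5 members passed in limma with either other pseudocount and 6 with the filter, against 3 under median-of-ratios scaling (0 higher; unadjusted p under 0.05 for 13 of either sign), 3 without a variance trend (1 higher) and 5 under quantile normalization (1 higher). Without 1 sample, 0 to 2 passed, 0 to 1 of them higher and 0 to 2 lower. Without Fetal2 or Neonatal2, 0 members passed in limma, with an unadjusted p under 0.05 for 9 and 15. Over all mRNAs, calls numbered 944 without Neonatal1 and 196 to 397 without any other sample, 163 to 785 of them higher and 33 to 159 lower, and lower calls numbered 335 under median-of-ratios scaling and 486 under quantile normalization. The replicate numbers do not pair the piglets, which came from different sows. Deviations from the group means correlated at -0.0407, -0.00434 and 0.000466 in same-numbered samples. Those of different-numbered samples correlated at -0.0492 to 0.0541. The 3 deviations of a group sum to 0, which ties these values together, and they cannot show whether same-numbered samples shared a batch. With the replicate number as a block 1 member passed, CYP2W1, with 0 higher (unadjusted p under 0.05 for 13 of either sign) and 1 lower, and 401 of all mRNAs passed, 336 higher and 65 lower.

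The median of the members moved to -0.15 and -0.212 under median-of-ratios scaling and quantile normalization, and that of all mRNAs to -0.00896 and -0.0382. Counting FMOD, or the 2 rows that only the study's own gene table names (CYP2B6 and CYP4V2, chosen there for their change; limma, adjusted p = 0.247 and 0.235), left 5 calls. FMOD was counted after the data were seen.

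For 31 of the 40 members the sign never changed. The other 9 had log2(FC) sizes of at most 0.213. Under median-of-ratios scaling ADH5 turned to -0.136, ALDH1L2 to -0.0627, ALDH3B2 to -0.0133 and ALDH4A1 to -0.148, and under quantile normalization ADH5 turned to -0.261, ALDH1L2 to -0.0527 and ALDH4A1 to -0.157. With a pseudocount of 0.1 ALDH3B2 turned to -0.136 and ALDH5A1 to 0.00219. With 1 sample left out, values ranged from -0.0655 to 0.184 for ADH5, -0.248 to 0.0386 for ALDH3A2, -0.177 to 0.353 for ALDH3B2, -0.185 to 0.17 for ALDH4A1, -0.255 to 0.124 for ALDH5A1, -0.129 to 0.0522 for EPHX1, -0.501 to 0.00374 for EPHX2 and -0.389 to 0.23 for SULT2B1. The cause of these changes was not tested. Genes under about 1 FPKM, such as CYP27B1, CYP7A1 and CYP21A2, are limited by unknown depth.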
